A study of Mus musculus with 16 samples.

Results

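The 10 genes described here encode proteins of the nuclear lamina and of the LINC complex, which links the nucleus to the cytoskeleton. The rule takes them by name and uses no measured value: Lmna, Lmnb1, Lmnb2, Lbr, Emd, Tmpo, Sun1, Sun2, Syne1 and Syne2, 10 of the 24981 genes listed. RNA was sequenced from the epidermis of newborn mice (p0 to p2) after a Percoll density gradient had separated suprabasal from basal keratinocytes. Mice with (KO) and without (WT) a knockout of Dlx3, bred on a mix of CD-1 and C57BL/6, provided 4 groups of 2 libraries each: KO suprabasal, WT suprabasal, KO basal and WT basal. Fvb/N mice, labelled WT for Dlx3, gave 4 suprabasal and 4 basal libraries. The design of the Dlx3 allele, and any promoter or Cre line that drives it, are not given in the sources used here, nor is it given whether libraries came from single or pooled animals.

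The lamina is a mesh of intermediate filaments under the inner nuclear membrane. A-type lamins, made from Lmna, add stiffness to the nucleus, while B-type lamins, made from Lmnb1 and Lmnb2, stay attached to the membrane by a lipid tail. Membrane proteins such as Lbr, emerin and the Tmpo products bind lamins and chromatin. Sun1 and Sun2 cross the space between the nuclear membranes and hold the nesprins Syne1 and Syne2, which reach actin, microtubule motors and other filaments. In the epidermis, division takes place in the basal layer, and suprabasal cells leave the cycle and later lose the nucleus as they cornify.

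Values are RPKM, read numbers per length and per mapped library reads, so levels can be set side by side between genes within a table. Fvb/N and Dlx3 libraries were normalized in separate tables, and levels are compared within each. Estimated depth was 45.4 to 61.2 M reads (M, mega) in Fvb/N libraries and 33.6 to 42.4 M in Dlx3 libraries. Dlx3 itself stood at 2.64 and 2.24 RPKM in KO suprabasal libraries against 7.87 and 6.92 in WT suprabasal libraries, and at 2.35 and 2.16 in KO basal libraries against 11.16 and 11.01 in WT basal libraries, so the KO libraries were lower but not at 0. The 6 basal keratinocyte markers summed to 656 to 3610 RPKM in Fvb/N suprabasal libraries against 13293 to 16050 in Fvb/N basal libraries. The layers stood closer in the Dlx3 table, where the same sum was 6588 to 6649 RPKM in KO suprabasal, 7103 to 7159 in WT suprabasal, 15163 to 15245 in KO basal and 14606 to 14957 in WT basal libraries. The 6 suprabasal markers summed to 43011 to 90462 RPKM in Fvb/N suprabasal libraries and 5181 to 38357 in Fvb/N basal libraries, with Krt10, a suprabasal keratin, at 18382 and 20379 RPKM in basal libraries 1 and 2 against 2770 and 3238 in basal libraries 3 and 4. Endothelial markers summed to at most 1.997 RPKM and muscle markers to at most 1.34 RPKM in any library. The 6 fibroblast markers summed to 17.1 to 116 RPKM in Fvb/N suprabasal and 40.8 to 135 in Fvb/N basal libraries, but single markers went opposite ways: Dcn was at 2.62 to 15.4 RPKM in suprabasal against 31.5 to 121 in basal libraries, and Col1a1 at 4.51 to 35.7 against 1.04 to 1.60. In the Dlx3 table fibroblast markers summed to 60.7 to 62.5 RPKM in KO suprabasal, 44.6 to 45.9 in WT suprabasal, 121 to 127 in KO basal and 135 to 138 in WT basal libraries. Single markers went opposite ways there too. Dcn, at 112 to 118 RPKM in KO basal and 125 to 128 in WT basal libraries, was higher in basal libraries of both genotypes. Col1a1, Col3a1 and Pdgfra were lower in basal libraries of both genotypes. Col1a2 was lower in KO basal but higher in WT basal libraries, and Lum was lower in KO basal libraries and overlapped in WT. Erythroid markers there summed to at most 1.10 RPKM in any suprabasal library, 31.8 to 32.3 in KO basal and 68.4 to 75.6 in WT basal libraries. Pigment cell markers were at 7.84 to 25.1 against 81.5 to 145 RPKM, and Langerhans, macrophage and T cell markers at 7.62 to 45.9 against 104 to 271 RPKM, Fvb/N suprabasal against basal. Hair follicle markers were at 109 to 168 against 5.13 to 9.16 RPKM and erythroid markers at 7.12 to 25.7 against 3.19 to 304 RPKM in the same order. Of the hair follicle markers, Msx2 and Hoxc13 overlapped between the Fvb/N layers. Of the Langerhans, macrophage and T cell markers, Cd3e and Ptprc overlapped, while Cd74, Csf1r and Cd207 were higher in basal libraries. Cd74 alone was at 4.95 to 34.0 RPKM in Fvb/N suprabasal against 86.3 to 217 in basal libraries. The part of other cell types in the results was not tested.

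Suprabasal library 3 of Fvb/N stands apart from the other suprabasal libraries, and the falls it bears on are also given without it. It held 22.9% of the basal mean of Krt5, a basal keratin, against 2.202% to 6.03% in libraries 1, 2 and 4. The sample labels give a first code to Fvb/N replicates 1 and 2 and a later code to replicates 3 and 4 of both layers. What the code marks is not stated in the labels. The header of the deposited table instead splits the codes by layer, with every basal library under the first code. Code and layer could then not be told apart.

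Promoter sequences are shown for Tmpo and Lbr, whose RPKM was lower in suprabasal cells (for Lbr in the Dlx3 table only before libraries were rescaled to their median ratio), and for Sun2, whose RPKM in the Dlx3 table was higher, because all 3 carry the same short elements. Each is the 300-base window from 250 bases before to 50 bases after a RefSeq transcript start on GRCm38.p6, printed 5′ to 3′ on the gene's strand. Capitals mark matches to CCAAT (or ATTGG on the other strand), TTTGAA (or TTCAAA), an element of many cell-cycle genes known as CHR, and TTTNNCGC (or GCGNNAAA), an E2F-type motif. The windows are Lbr at chr1:181842352-181842651, Sun2 at chr15:79742487-79742786, and Tmpo at chr10:91171570-91171869 and chr10:91170501-91170800, each on the minus strand.
Tmpo promoter 1: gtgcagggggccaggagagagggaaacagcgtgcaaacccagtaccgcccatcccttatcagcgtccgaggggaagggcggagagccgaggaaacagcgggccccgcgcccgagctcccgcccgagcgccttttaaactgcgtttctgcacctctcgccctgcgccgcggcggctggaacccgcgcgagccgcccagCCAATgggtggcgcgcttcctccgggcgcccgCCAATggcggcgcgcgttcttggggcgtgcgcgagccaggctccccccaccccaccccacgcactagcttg
Tmpo promoter 2: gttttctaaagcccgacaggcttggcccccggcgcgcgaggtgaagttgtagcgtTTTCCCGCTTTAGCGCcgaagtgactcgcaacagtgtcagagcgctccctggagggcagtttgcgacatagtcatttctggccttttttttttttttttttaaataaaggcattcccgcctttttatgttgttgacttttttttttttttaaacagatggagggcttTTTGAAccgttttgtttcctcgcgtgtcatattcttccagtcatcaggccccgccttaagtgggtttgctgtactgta
Lbr promoter: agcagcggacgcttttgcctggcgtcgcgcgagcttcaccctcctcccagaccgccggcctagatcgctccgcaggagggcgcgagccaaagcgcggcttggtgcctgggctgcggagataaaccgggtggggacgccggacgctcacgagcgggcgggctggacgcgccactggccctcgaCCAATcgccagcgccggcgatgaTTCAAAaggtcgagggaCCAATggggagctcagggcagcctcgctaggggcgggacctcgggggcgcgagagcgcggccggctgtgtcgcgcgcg
Sun2 promoter: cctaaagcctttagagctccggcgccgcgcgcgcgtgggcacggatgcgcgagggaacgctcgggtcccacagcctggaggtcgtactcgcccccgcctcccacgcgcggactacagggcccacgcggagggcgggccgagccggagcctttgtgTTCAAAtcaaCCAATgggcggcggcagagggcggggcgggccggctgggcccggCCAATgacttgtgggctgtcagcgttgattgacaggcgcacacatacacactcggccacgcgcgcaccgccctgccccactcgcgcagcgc
The first Tmpo window holds 2 CCAAT matches, beginning at bases -53 and -21 from the start, and the Lbr window holds 2, at -68 and -28. The Sun2 window also holds 2, at -85 and -41, with a CHR match at -95, and Lbr has its CHR match at -45. The second Tmpo window holds a CHR match at -28 and 2 adjoining E2F-type matches at -195 and -187, and none of the matches in these 4 windows overlaps another. RefSeq windows of 9 members were searched, 15 windows in all. Lmnb1 was not among the members searched, so the shares below say nothing about it. A CCAAT match is in 7 of the 15 (46.7%), a CHR match in 3 (20%) and an E2F-type match in 1 (6.67%), near the 37.4%, 17.9% and 5.17% of all 32851 mouse promoter windows that hold each. A match is a run of letters and not a shown binding site.

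In Fvb/N epidermis, suprabasal cells had less RNA for all 3 lamins and for Tmpo, Lbr, Sun1 and Syne2, in RPKM. Lmnb1 and Tmpo were the lowest relative to basal cells, at 0.106 and 0.162 of the basal mean, whereas Lmna was at 0.501. Without suprabasal library 3 these ratios were 0.0653, 0.112 and 0.477, and that of Syne2 was 0.200 (0.314 with it). Sun2 and Emd did not pass the test, and Syne1 was too low to be tested. Of the 9 members tested, 7 fell and 0 rose at an adjusted p under 0.05 (limma, Benjamini-Hochberg over all genes), where 60.6% of all 11608 genes tested fell and 13.4% rose (73.9% in either direction). The median log2 fold change (on RPKM + 1) was -1.504 over the 9 members and -0.55 over all genes tested. RPKM are shares of a library, so this general shift matters: with libraries rescaled to their median ratio the all-gene median became 0.02, and the fall of Lmna was no longer called (-0.31, adjusted p = 0.0797 by limma), while 6 members still fell and Sun2 was called higher. Over all genes tested, 1554 rose and 7030 fell as deposited, against 3846 and 3946 after rescaling. In bulk RNA, fewer cells that make a transcript and less transcript per cell cannot be told apart.

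**Figure D1:**
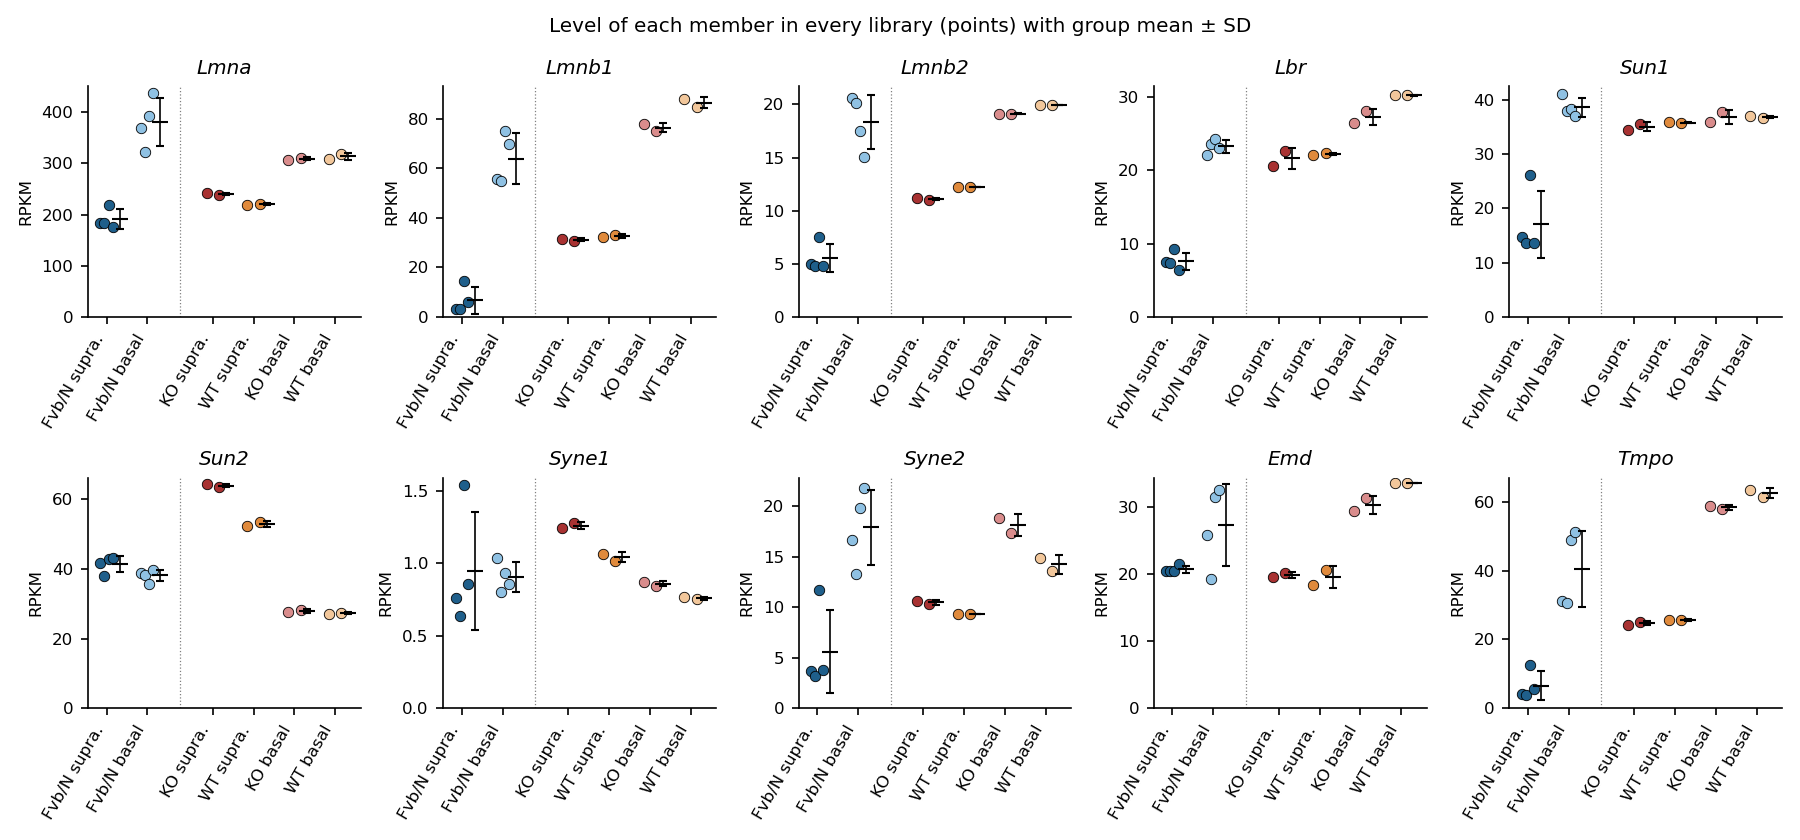
RPKM (y axis, linear) of each of the 10 members in every library (points), with the group mean ± SD beside them; the 2 Fvb/N groups stand left of the dotted line and the 4 Dlx3 groups right of it, and the tables are not on a shared scale. Lmnb1 and Tmpo are lower in every suprabasal library than in every basal library of their table, Sun2 is higher in suprabasal libraries of the Dlx3 table, and suprabasal library 3 of Fvb/N is the high point for Sun1 and Syne2.

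Lmnb1, which encodes lamin B1, was at 3.20, 3.16, 14.5 and 6.16 RPKM in Fvb/N suprabasal libraries 1 to 4 against 55.7, 54.9, 75.2 and 69.7 RPKM in basal libraries 1 to 4. The groups did not overlap, and the highest suprabasal value was that of library 3. Lmnb1 fell by 3.27 log2 units (SE 0.384, n = 4 per layer, limma adjusted p = 0.000115), or fell by 3.68 without suprabasal library 3. Lmnb2, which encodes lamin B2, was at 5.02, 4.78, 7.54 and 4.80 RPKM in suprabasal against 20.6, 20.2, 17.5 and 15.1 RPKM in basal libraries, a log2 fold change of -1.58 (SE 0.163, limma adjusted p = 7.95e-05) that was -1.71 without suprabasal library 3. Every suprabasal library was below every basal library for Lmnb2 as well. A suprabasal to basal ratio of 0.0884, which follows log2 values rather than mean RPKM, stands for Lmnb1 in the authors' deposited table.

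Lmna, the gene for lamins A and C, had the highest RPKM of the 10 members in every group. It was at 184, 184, 219 and 176 RPKM in Fvb/N suprabasal libraries and at 370, 323, 393 and 438 RPKM in basal libraries. The groups did not overlap, and Lmna fell by 0.99 log2 units (SE 0.154, limma adjusted p = 0.000419), the fall that rescaling left uncalled, or fell by 1.06 without suprabasal library 3. Gene-level RPKM do not separate lamin A from lamin C.

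The lamin RNA that remained in suprabasal cells was mostly Lmna. The ratio of Lmna to Lmnb1 plus Lmnb2, which does not depend on library scaling, was 22.4, 23.2, 9.93 and 16.1 in Fvb/N suprabasal libraries against 4.85, 4.31, 4.24 and 5.17 in basal libraries. It averaged 17.9 ± 6.20 in suprabasal and 4.64 ± 0.444 in basal libraries (SD, n = 4 each), and 20.6 in suprabasal cells without library 3. As a share of the summed lamin RPKM, Lmna made up 90.8% to 95.9% in suprabasal libraries and 80.9% to 83.8% in basal libraries, while Lmnb1 made up 1.64% to 6.03% and 12.5% to 15.5%, suprabasal against basal. The ratio moved the same way in the Dlx3 table, with smaller values. It was 5.66 and 5.69 in KO suprabasal, 4.95 and 4.87 in WT suprabasal, 3.18 and 3.31 in KO basal, and 2.86 and 3.05 in WT basal libraries, with no overlap between any of these 4 groups. These ratios were given no test of their own.

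**Figure D2:**
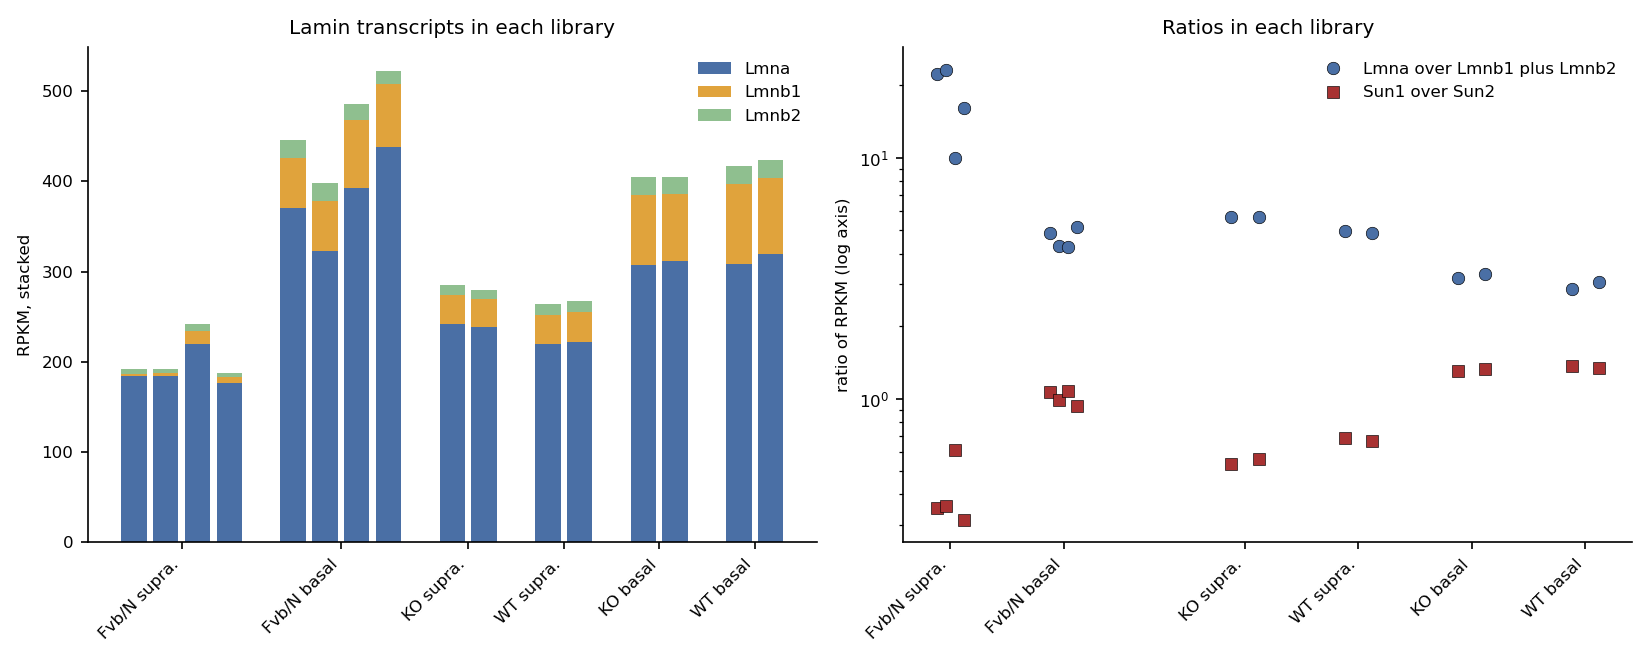
Left, summed RPKM of Lmna, Lmnb1 and Lmnb2 stacked for each library (bars, y axis from 0); right, the ratios Lmna over Lmnb1 plus Lmnb2 and Sun1 over Sun2 in each library (points, log axis). The lamin ratio is 9.93 to 23.2 in Fvb/N suprabasal and 4.24 to 5.17 in Fvb/N basal libraries, and the Sun1 to Sun2 ratio is lower in suprabasal than in basal libraries of each table.

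Among the membrane proteins that bind lamins and chromatin, Tmpo, which encodes the lamina-associated polypeptides 2, was at 4.16, 3.83, 12.7 and 5.55 RPKM in Fvb/N suprabasal libraries against 31.1, 30.7, 48.8 and 51.2 RPKM in basal libraries. It fell by 2.55 log2 units (SE 0.333, limma adjusted p = 0.000173), with no overlap, and fell by 2.88 without suprabasal library 3. Basal libraries 3 and 4 were the higher ones for Tmpo and also for Lmnb1. Lbr, the lamin B receptor and also a sterol reductase, was at 7.47, 7.32, 9.21 and 6.36 RPKM in suprabasal against 22.05, 23.5, 24.2 and 23.0 RPKM in basal libraries, and fell by 1.504 log2 units (SE 0.120, limma adjusted p = 5.45e-05). Emd, which encodes emerin, a LEM-domain protein, was at 20.5, 20.5, 20.5 and 21.5 RPKM in suprabasal and at 25.8, 19.3, 31.5 and 32.6 RPKM in basal libraries. The Emd groups overlapped through basal library 2, and its log2 fold change of -0.35 (SE 0.162) was not called (limma adjusted p = 0.0755). Without basal library 2 it was called (-0.50, limma adjusted p = 0.00686), while after rescaling it was 0.30 (adjusted p = 0.104), so the direction of Emd in Fvb/N depends on the scaling.

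Sun1 and Sun2, the paired SUN proteins of the inner membrane, parted between the layers. Sun1 was at 14.7, 13.6, 26.2 and 13.6 RPKM in Fvb/N suprabasal libraries against 41.0, 37.9, 38.3 and 37.0 RPKM in basal libraries, a log2 fold change of -1.19 (SE 0.198, limma adjusted p = 0.000601) with no overlap, which was -1.40 without suprabasal library 3. Sun2 was at 41.6, 37.9, 42.9 and 43.2 RPKM in suprabasal and 38.7, 38.3, 35.7 and 39.7 RPKM in basal libraries. The Sun2 groups overlapped, and its log2 fold change of 0.12 (SE 0.0994, limma adjusted p = 0.313) became 0.78 (adjusted p = 0.000625) after rescaling. The ratio of Sun1 to Sun2 within a library was 0.353, 0.359, 0.611 and 0.314 in suprabasal against 1.06, 0.989, 1.07 and 0.932 in basal libraries, so basal cells held about equal RPKM of both and suprabasal cells mostly Sun2. Its suprabasal mean was 0.409, or 0.342 without library 3.

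Of the nesprins, Syne2, which encodes nesprin-2, was at 3.69, 3.25, 11.8 and 3.83 RPKM in Fvb/N suprabasal libraries against 16.7, 13.4, 19.8 and 21.9 RPKM in basal libraries. It fell by 1.65 log2 units (SE 0.336, limma adjusted p = 0.00177), or fell by 2.02 without suprabasal library 3, whose value lay near the lowest basal one. Syne1, which encodes nesprin-1, was at 0.761, 0.638, 1.54 and 0.854 RPKM in suprabasal and 1.03, 0.802, 0.936 and 0.854 RPKM in basal libraries. It reached 1 RPKM in too few Fvb/N libraries to be tested, and its groups overlapped.

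The order of the members by RPKM differed between the layers. In Fvb/N suprabasal cells Lmna came first, then Sun2, then Emd and Sun1, whose libraries overlapped, then Lbr, Lmnb1, Tmpo, Syne2 and Lmnb2, whose libraries overlapped, and last Syne1; the highest Lmnb1 library, library 3, also lay above the lowest Sun1 libraries. In Fvb/N basal cells Lmna was followed by Lmnb1, then by Tmpo, Sun1 and Sun2 with overlapping libraries, then by Emd, Lbr, Lmnb2 and Syne2, and last by Syne1. The libraries of Emd spread widely and overlapped those of Tmpo above it and of Lbr, Lmnb2 and Syne2 beneath it, while Lbr lay above Lmnb2 and Syne2, which overlapped each other. Lmnb1 was thus second of the 10 in basal cells and sixth by its mean in suprabasal cells. In KO and in WT suprabasal cells the order was Lmna, Sun2, Sun1, Lmnb1, Tmpo, Lbr, Emd, Lmnb2, Syne2 and Syne1, with no overlap between neighbours. In KO and in WT basal cells it began with Lmna, Lmnb1, Tmpo, Sun1 and Emd and ended with Lmnb2, Syne2 and Syne1, while Sun2 and Lbr between them overlapped in KO and stood with Lbr above Sun2 in WT.

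Replicates 1 and 2 are the libraries of the first code in the labels. Within them alone the log2 fold changes were -3.75 for Lmnb1, -2.68 for Tmpo, -1.83 for Syne2 and -1.42 for Sun1 (limma adjusted p at most 3.39e-07 for these 4). Within replicates 3 and 4 alone they were -2.80, -2.43, -1.47 and -0.96 for the same 4 genes (adjusted p at most 0.0368). Of the 9 members tested, 7 fell within the first code, where 64% of all genes tested fell and 19.5% rose (83.4% in either direction). Within the later code 8 fell, where 46.6% of all genes tested fell and 10% rose (56.6% in either direction). Emd was also called there (-0.59, limma adjusted p = 0.0307). These fits within a code were added after the data had been seen, and each rests on 2 libraries per layer.

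**Figure D3:**
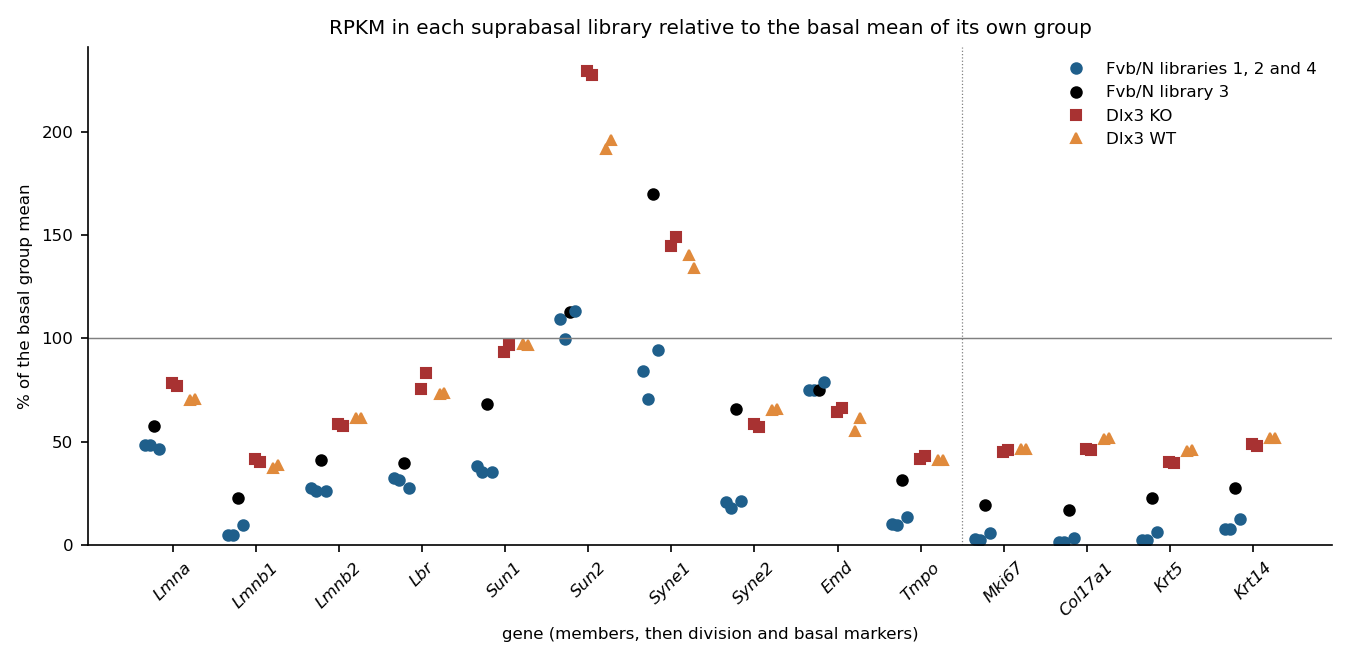
RPKM of each member, of the division gene Mki67 and of the basal markers Col17a1, Krt5 and Krt14 in each suprabasal library, as a percentage of the basal mean of its own group (y axis, linear; the grey line is 100%); circles are Fvb/N libraries with library 3 in black, squares are Dlx3 KO and triangles Dlx3 WT libraries. Library 3 lies above libraries 1, 2 and 4 for Lmnb1 (22.8% against 4.94% to 9.64%) and for Krt5 (22.9% against 2.202% to 6.03%), and Sun2 and Syne1 are the members above 100% in all Dlx3 suprabasal libraries.

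Library 3 was nearer to the basal level for some members than for others. For Lmnb1 it held 22.8% of the basal mean against 4.94% to 9.64% in libraries 1, 2 and 4, and for Tmpo 31.5% against 9.46% to 13.7%. For Syne2 it held 65.7% against 18.1% to 21.4%, and for Sun1 68.0% against 35.2% to 38.1%. Lmna differed less, at 57.5% against 46.3% to 48.4%. Mki67, a protein of dividing cells, was at 19.4% in library 3 against 2.51% to 5.82% in the others. Basal marker RNA in library 3 moved with these members, and its part in their values was not tested. The number of members called lower was 7 with and without that library, and also without libraries 3 and 4 together.

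In the Dlx3 table the layers differed in the same direction for the B-type lamins, Tmpo and Syne2, by smaller factors, while Sun2 was higher in suprabasal cells. Syne1 is left out of the layer counts in this table, since it passed the filter of 1 RPKM only through the suprabasal libraries, where it is higher. In KO epidermis 8 of the other 9 members fell and 1 rose, where 69.7% of all 12146 genes tested fell and 19.9% rose (89.6% in either direction). In WT epidermis 7 of the 9 fell, 1 rose and 1 was not called, where 70.4% of all genes tested fell and 19.2% rose (89.6% in either direction). The median log2 fold change was -0.59 over these 9 in KO and -0.56 in WT, beside -0.39 and -0.40 over all genes tested. None of the 9 overlapped between layers in KO or in WT, nor did 94.3% and 94.5% of all genes tested. The 2 libraries of each Dlx3 group differed by a median of 3.41% to 3.77% per gene, near counting noise, so these p-values measure a spread that may be technical. Rescaling moved the all-gene median to -0.0012 in KO and -0.0016 in WT, and the directions of Lmna, Lbr and Sun1 below depend on it. After rescaling 5 of the 9 fell and 4 rose in KO, and 4 fell and 2 rose in WT. Over all genes tested, the rescaled counts were 4832 higher and 4700 lower in KO (2416 and 8467 as deposited) and 4895 higher and 4765 lower in WT (2336 and 8545 as deposited).

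Lmnb1 was at 31.6 and 30.8 RPKM in KO suprabasal, 32.1 and 33.2 in WT suprabasal, 77.7 and 75.0 in KO basal, and 88.1 and 84.7 in WT basal libraries. Its log2 fold change between layers was -1.26 in KO (SE 0.0311, limma adjusted p = 6.64e-10) and -1.38 in WT (SE 0.0311, limma adjusted p = 3.78e-10). Tmpo was at 24.3 and 25.1 RPKM in KO suprabasal, 25.5 and 25.8 in WT suprabasal, 58.8 and 57.8 in KO basal, and 63.4 and 61.3 in WT basal libraries, a log2 fold change of -1.21 in KO and -1.25 in WT, both called. Suprabasal libraries thus held 40.3% to 41.4% of the basal mean of Lmnb1 in KO and 37.2% to 38.4% in WT. Lmnb2 was at 11.15 and 11.04 RPKM in KO suprabasal, 12.3 and 12.3 in WT suprabasal, 19.1 and 19.1 in KO basal, and 19.9 and 19.9 in WT basal libraries, with called log2 fold changes of -0.73 in KO and -0.66 in WT. Rescaling kept the falls of these 3 genes in both genotypes.

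Mki67 stood at 44.97% and 45.7% of its basal mean in KO suprabasal libraries and at 46.6% in both WT suprabasal libraries. Krt5 stood at 39.8% to 40.0% in KO and 45.5% to 46.1% in WT suprabasal libraries. The basal and division markers therefore differed less between layers here than in Fvb/N, beside the smaller falls of Lmnb1 and Tmpo, and the part of the separation in those sizes was not tested.

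Lmna was at 242 and 238 RPKM in KO suprabasal, 219 and 221 in WT suprabasal, 308 and 311 in KO basal, and 309 and 319 in WT basal libraries. Its log2 fold change between layers was -0.36 in KO and -0.51 in WT (limma adjusted p = 2.77e-07 and 2.72e-08), but 0.10 in KO and -0.03 in WT after rescaling. Lbr was at 20.6 and 22.6 RPKM in KO suprabasal, 22.1 and 22.3 in WT suprabasal, 26.4 and 28.0 in KO basal, and 30.2 and 30.1 in WT basal libraries, a log2 fold change of -0.32 in KO and -0.43 in WT that became 0.13 and 0.04 after rescaling. Emd was at 19.6 and 20.2 RPKM in KO suprabasal, 18.5 and 20.7 in WT suprabasal, 29.4 and 31.3 in KO basal, and 33.6 and 33.6 in WT basal libraries. Emd was called lower, at -0.59 in KO and -0.75 in WT, and still after rescaling, at -0.14 and -0.28.

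Sun2 was the member with the largest rise in the Dlx3 table. It was at 64.2 and 63.5 RPKM in KO suprabasal, 52.2 and 53.4 in WT suprabasal, 27.6 and 28.3 in KO basal, and 27.1 and 27.5 in WT basal libraries. Sun2 rose by 1.16 log2 units between layers in KO (SE 0.0250, limma adjusted p = 2.97e-10) and by 0.93 in WT (SE 0.0250, adjusted p = 1.05e-09). The suprabasal to basal ratio of Sun2 in the authors' deposited table is 2.28 in KO, 1.93 in WT and 1.09 in Fvb/N. Sun1 was at 34.4 and 35.6 RPKM in KO suprabasal, 35.9 and 35.7 in WT suprabasal, 36.0 and 37.7 in KO basal, and 37.0 and 36.7 in WT basal libraries. Its log2 fold change was -0.07 in KO (limma adjusted p = 0.0440) and -0.04 in WT (adjusted p = 0.212), and 0.39 and 0.43 after rescaling, both then called. The Sun1 to Sun2 ratio, free of scaling, was 0.536 and 0.560 in KO suprabasal, 0.687 and 0.668 in WT suprabasal, 1.30 and 1.33 in KO basal, and 1.36 and 1.34 in WT basal libraries.

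Syne2 was at 10.7 and 10.4 RPKM in KO suprabasal, 9.34 and 9.36 in WT suprabasal, 18.9 and 17.4 in KO basal, and 14.9 and 13.6 in WT basal libraries. It was called lower between layers, at -0.73 in KO and -0.56 in WT, and after rescaling the WT value of -0.11 was no longer called (limma adjusted p = 0.0694). Syne1 was at 1.24 and 1.28 RPKM in KO suprabasal, 1.07 and 1.02 in WT suprabasal, 0.872 and 0.846 in KO basal, and 0.766 and 0.752 in WT basal libraries. Its log2 fold change was 0.28 in KO and 0.22 in WT, and no call is drawn from the filtered fit, which selects for this direction. In the fit without a filter on low values its adjusted p was 0.000412 in KO and 0.00134 in WT (limma).

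**Figure D4:**
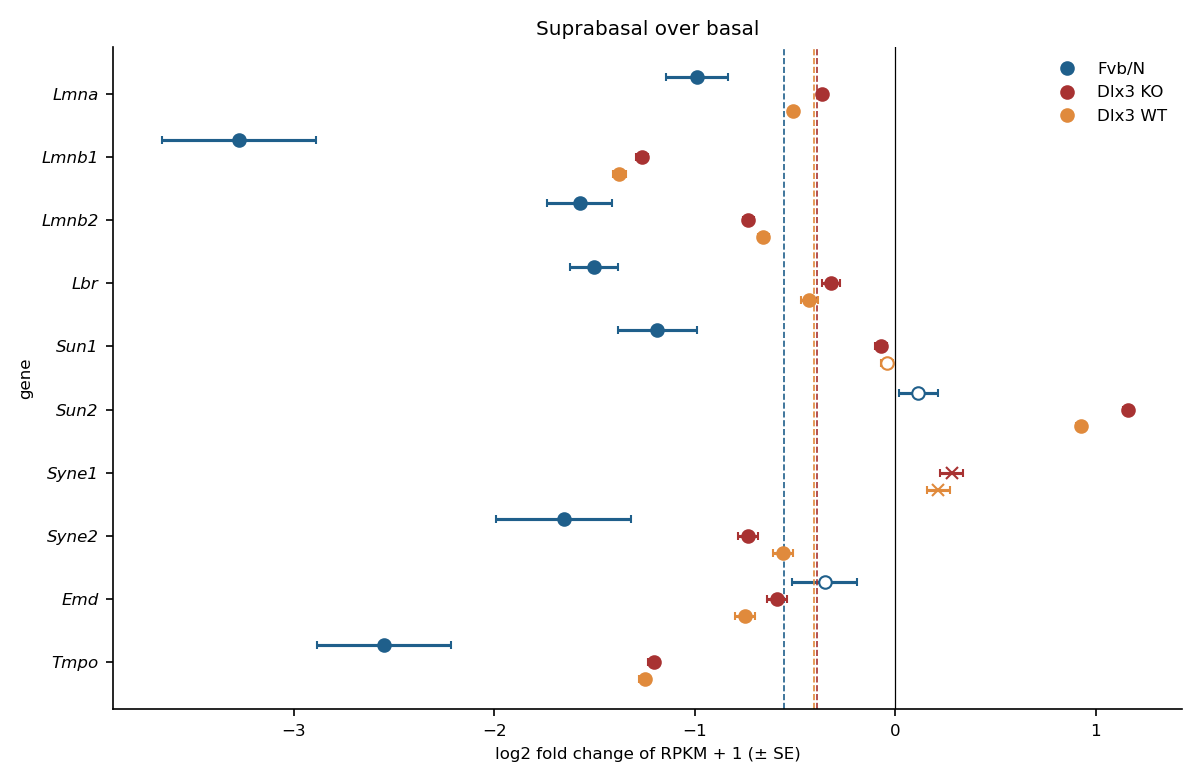
Suprabasal over basal log2 fold change of RPKM + 1 (x axis) for each member (rows) with its SE (bars) in Fvb/N, Dlx3 KO and Dlx3 WT mice; filled points are called at an adjusted p under 0.05, open points are not, crosses (Syne1 in the Dlx3 table) passed the filter only through the higher group, and dashed lines are the medians of all genes tested. Lmnb1 and Tmpo lie left of the all-gene median in all 3 comparisons and Sun2 lies right of it, whereas Lmna, Lbr and Sun1 lie near or right of it in the Dlx3 table, where rescaling turned the direction of Lbr and Sun1 in both genotypes and of Lmna in KO.

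KO and WT libraries differed by small factors in the members that were called. In suprabasal cells, KO libraries had more Sun2, Lmna and Syne2 and less Lmnb2 than WT libraries, each by at most 1.21-fold in mean RPKM. In basal cells, KO libraries had more Syne2 and less Lmnb1. In suprabasal cells 3 of 10 members rose and 1 fell, where 21.6% of all genes tested rose and 15.7% fell (37.3% in either direction). In basal cells 1 of 10 rose and 1 fell, where 4.23% of all genes tested rose and 2.98% fell (7.21% in either direction; after rescaling 586 genes rose and 215 fell, against 514 and 362 as deposited). The groups of 8 members did not overlap in suprabasal cells (70.1% of all genes tested) and those of 8 in basal cells (51.7% of all genes tested). The KO over WT comparisons in the layers share no libraries, but the layer comparisons above share all of theirs with them.

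Sun2 in suprabasal cells was at 64.2 and 63.5 RPKM in KO against 52.2 and 53.4 RPKM in WT libraries, a rise of 0.27 log2 units (SE 0.0250, n = 2 per genotype, limma adjusted p = 0.000105). Both KO libraries lay above both WT libraries. In basal cells Sun2 differed by 0.03 (SE 0.0250, adjusted p = 0.490). The difference between the layers' genotype effects was itself called, at 0.24 log2 units (SE 0.0354, limma adjusted p = 0.00296), and kept its call in every alternative run. Lmna rose by 0.12 in suprabasal KO cells (SE 0.0229, limma adjusted p = 0.00346), with a basal difference of -0.02 (SE 0.0229, adjusted p = 0.660). Its difference between layers, 0.14 (SE 0.0324, limma adjusted p = 0.0150), was not called without KO suprabasal library 1, WT basal library 2 or WT suprabasal library 1 (adjusted p = 0.0514, 0.0508 and 0.0576), nor without the intensity trend (0.0623). Between layers 2 of 10 genotype differences were called, both positive, where 14.4% of all genes tested had a positive and 8.08% a negative one (22.5% in either direction).

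Syne2 was higher in KO in both layers. In basal cells it was at 18.9 and 17.4 RPKM in KO against 14.9 and 13.6 RPKM in WT libraries, a rise of 0.33 log2 units (SE 0.04996, limma adjusted p = 0.00437) that was called in every alternative run. In suprabasal cells its rise of 0.15 (SE 0.04996, adjusted p = 0.0407) was not called when any of the 4 suprabasal libraries was left out (adjusted p from 0.0818 to 0.159), without a filter (0.119) or without the intensity trend (0.0626). The genotype effects of Syne2 in the layers were not shown to differ (-0.18, SE 0.0707, adjusted p = 0.107), although without WT basal library 1 the difference was called (-0.24, adjusted p = 0.0453). Lmnb1 in basal cells was at 77.7 and 75.0 RPKM in KO against 88.1 and 84.7 RPKM in WT libraries, a log2 fold change of -0.18 (SE 0.0311, limma adjusted p = 0.00994), which was not called without KO basal library 2 or WT basal library 1 (adjusted p = 0.0672 and 0.0725), nor without a filter (0.0561). Lmnb2 in suprabasal cells fell by 0.13 (SE 0.0272, limma adjusted p = 0.00539), at 11.15 and 11.04 RPKM in KO against 12.3 and 12.3 RPKM in WT libraries.

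The other genotype differences did not pass the test. In basal cells Lbr was at -0.15, Emd at -0.14 and Tmpo at -0.10 log2 units (limma adjusted p = 0.0888, 0.143 and 0.0803), each lower in both KO libraries than in both WT libraries. Sun1 was at -0.0004 in basal and -0.03 in suprabasal cells (SE 0.0297 each), and Emd at 0.02 in suprabasal cells (SE 0.0502). Syne1 was at 0.08 in basal and 0.15 in suprabasal cells (SE 0.0567 each). Suprabasal keratinocyte markers summed to 51823 to 52139 RPKM in KO suprabasal against 44981 to 45234 in WT suprabasal libraries, and to 5483 to 5517 in KO basal against 3631 to 3649 in WT basal libraries, with Lor, a late marker, at 240 to 241 RPKM in KO basal against 58.5 to 64.5 in WT basal libraries. Fibroblast sums were higher in KO suprabasal than in WT suprabasal libraries, and erythroid sums lower in KO basal than in WT basal libraries, by the values given for the Dlx3 table at the start. In suprabasal cells pigment cell markers summed to 85.5 to 86.1 RPKM in KO against 54.9 to 54.99 RPKM in WT suprabasal libraries. Langerhans, macrophage and T cell markers summed to 115 to 117 RPKM in KO against 81.0 to 82.3 RPKM in WT, and hair follicle markers to 6.61 to 6.73 RPKM in KO against 21.6 to 21.7 RPKM in WT suprabasal libraries. Single markers did not all follow these sums. Of the hair follicle markers, Krt71, Krt25 and Krt27 were lower in KO suprabasal libraries, Hoxc13 and Krt35 were higher, and Msx2 overlapped. The T cell marker Cd3e was lower in KO suprabasal libraries, against its sum. In basal cells pigment cell markers summed to 91.5 to 93.9 RPKM in KO against 81.1 RPKM in WT, and hair follicle markers to 5.79 to 5.93 against 8.12 to 8.72 RPKM. Of these hair follicle markers, Krt27, Krt35 and Hoxc13 were lower in KO basal libraries, Krt71 was higher, and Krt25 and Msx2 overlapped. Xist, which coats an inactive X chromosome, was at 52.7 to 57.0 RPKM in KO basal against 37.6 to 41.2 RPKM in WT basal libraries. The Y-linked Ddx3y was at 8.17 to 8.74 against 10.7 to 11.6 RPKM in the same order. In suprabasal cells Xist was at 48.3 to 49.6 RPKM in KO against 46.5 to 46.8 RPKM in WT libraries, and Ddx3y at 5.45 to 5.93 against 8.68 to 8.78 RPKM. Every Dlx3 group thus held RNA of both sexes. These values move with genotype beside the members, and their part was not tested.

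**Figure D5:**
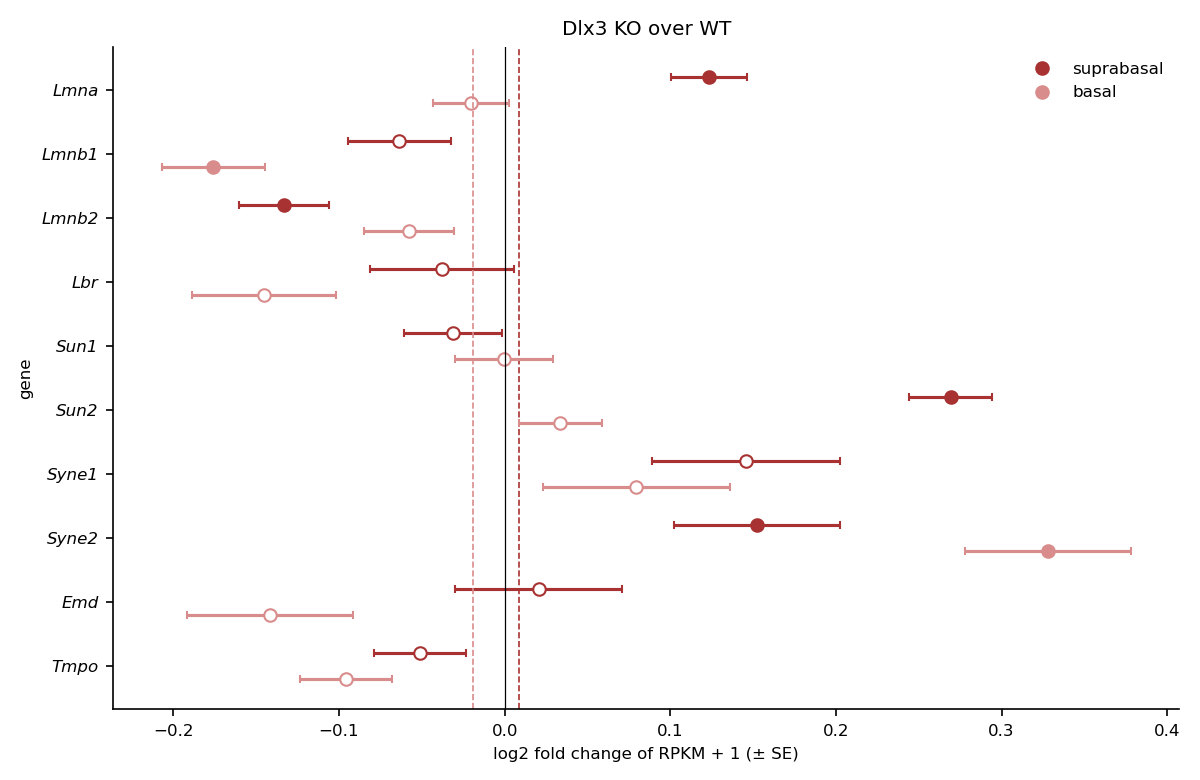
Dlx3 KO over WT log2 fold change of RPKM + 1 (x axis) for each member (rows) with its SE (bars) in suprabasal and basal cells; filled points are called at an adjusted p under 0.05, open points are not, and dashed lines are the medians of all genes tested. Sun2 (0.27) and Lmna (0.12) are called in suprabasal cells, where their basal values are 0.03 and -0.02, and Syne2 is called in both layers.

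The genes around the members were described from lists of known roles, whose counts stand beside the 60.6% of all genes tested that fell in Fvb/N, 69.7% in KO and 70.4% in WT. Of 30 nuclear pore genes, 28 fell between layers in Fvb/N (median -1.28) and 30 of 30 in KO and in WT (medians -0.66 and -0.65). Nup210, a membrane-spanning pore protein, changed by -3.23 log2 units in Fvb/N (0.945 ± 1.04 RPKM in suprabasal and 15.8 ± 2.48 RPKM in basal libraries, SD, n = 4 each) and -1.27 in WT, and Ndc1, another one, fell by 2.23 in Fvb/N. Of 16 division genes, 15 fell in Fvb/N (median -3.19) and 16 of 16 in KO and WT (medians -1.11 and -1.26). Mki67 fell by 3.65 and Top2a, a DNA topoisomerase of dividing cells, fell by 3.58 in Fvb/N. For these lists, as for the members, the all-gene medians were -0.55 in Fvb/N, -0.39 in KO and -0.40 in WT.

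Of 14 other inner nuclear membrane and lamina partners tested (of 16 listed), 10 fell and 1 rose in Fvb/N, 8 fell and 4 rose in KO, and 9 fell and 3 rose in WT, a larger share falling than of all genes tested in Fvb/N and a smaller one in KO and WT. Nrm, which encodes nurim, fell by 3.09 in Fvb/N (2.06 ± 1.91 RPKM in suprabasal and 22.3 ± 4.27 RPKM in basal libraries, SD, n = 4 each) and fell by 0.96 in WT. Tmem43, which encodes LUMA, a binding partner of emerin and lamins, went the other way, rising by 0.74 in Fvb/N (104 ± 12.3 RPKM in suprabasal and 62.3 ± 10.3 RPKM in basal libraries) and by 1.39 in WT. Like Sun2, Tmem43 was also higher in suprabasal KO than WT cells, by 0.27 (129 ± 1.44 RPKM in KO and 107 ± 2.07 RPKM in WT libraries, SD, n = 2 each, limma adjusted p = 8.40e-05). Of the 7 other SUN and KASH genes listed in the tables, 1 was tested: Syne3, which encodes nesprin-3, fell by 2.13 in Fvb/N and fell by 1.33 in WT.

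Of 9 cytoskeletal partners of the nesprins, 6 fell and 1 rose in Fvb/N, 6 fell and 1 rose in KO, and 5 fell and 3 rose in WT. The falling shares were near or under those of all genes tested, so the falls show nothing about the list as such. The rising share in WT was above the 19.2% of all genes tested. Dst, a plakin with an epithelial form in the hemidesmosomes of basal cells, was called lower at -3.53 in Fvb/N and -0.92 in WT, and Plec, the plectin that nesprin-3 binds, fell by 1.22 in Fvb/N but rose by 0.09 in WT. Bicd2, a dynein adaptor, rose by 0.70 in Fvb/N and by 0.53 in WT. Of 7 chromatin tethers at the lamina, 6 fell and 0 rose in Fvb/N, and 6 fell and 1 rose in KO and in WT. The riser in WT was Zbtb7b, at 0.515 log2 units (limma adjusted p = 2.50e-07). Cbx5 and Cbx3, which encode the heterochromatin proteins HP1 alpha and gamma, were called lower at -2.602 and -1.77 in Fvb/N, and Cbx3 at -1.31 in WT. Of 5 lamin processing enzymes, 2 fell in Fvb/N, 3 fell and 2 rose in KO, and 3 fell and 1 rose in WT. The falling shares were under those of all genes tested, while the rising share in KO was above the 19.9% of all genes tested. Zmpste24, the protease that matures lamin A, fell by 0.83 in Fvb/N (5.93 ± 0.837 RPKM in suprabasal and 11.3 ± 0.908 RPKM in basal libraries, SD, n = 4 each).

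Between genotypes the lists held fewer calls. In suprabasal cells 7 nuclear pore genes fell and 1 rose, 5 division genes rose and 0 fell, and 3 partners rose and 1 fell, in KO against WT, where 21.6% of all genes tested rose and 15.7% fell. In basal cells, where 4.23% of all genes tested rose and 2.98% fell, 1 nuclear pore gene (Nup210, -0.16) and 4 division genes fell, among them Cdc20 (-0.20) and Ccnb1 (-0.18), both of mitosis, beside the fall of Lmnb1 by 0.18. The median genotype change of the division genes was 0.06 in suprabasal and -0.09 in basal cells, beside 0.01 and -0.02 over all genes tested.

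Genes with the most like pattern were taken over the 4 log2 fold changes Fvb/N layer, KO layer, WT layer and KO over WT in basal cells, by the largest of the 4 differences, among 7242 genes. For Lmnb1 these were Ccnb2 (largest difference 0.06), Aurkb (0.09) and Cenpa (0.09). For Lmna they included Map2k1 (0.04) and Actr1b (0.06). For Syne2 the nearest genes, Kmt2a (0.19), Tppp (0.21) and Ets2 (0.22), lay farther away. The comparisons share libraries, so this likeness is a description.

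In GENCODE M21 (GRCm38, the assembly also named mm10) all 10 members are protein-coding. Exons of Lbr, Sun1, Sun2 and Tmpo overlap an exon of a gene on the opposite strand (for Lbr, Dnah14), exons of Lbr and Syne2 overlap an rRNA and a miRNA gene on the same strand, and an exon of Emd a processed pseudogene on the same strand. Whether counting used strand is not given in the sources used here, so reads from such partners cannot be told apart from those of the members. Sun2 lies at chr15:79724070-79742536 on the minus strand and Syne2 at chr12:75818134-76110926 on the plus strand. Lmna lies at chr3:88480147-88509956 and Tmpo at chr10:91147571-91181315, both on the minus strand.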

How the data were processed

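Total RNA from basal and suprabasal keratinocytes was sequenced in 16 libraries. RPKM were computed by the authors in Partek, and reads were mapped to mm10, per the file headers. TopHat2 2.1.1, Partek and bcl2fastq 2.20.0.422 are named in the submitters' processing notes. The gene annotation and the handling of multiply mapped reads are not given in the sources used here. The ratio in the authors' deposited comparison tables is quoted where that table is named. It matches the fold change of mean log2(RPKM + 0.1) and not the ratio of mean RPKM. For Lmnb1 in Fvb/N it is 0.0884, where the ratio of mean RPKM is 0.106.

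The rule for the members uses gene names alone, but members, lists and alternatives were chosen with earlier results of these data known. RPKM + 1 was taken to log2, so fold changes understate changes of low genes. Genes at 1 RPKM or more in at least 4 Fvb/N (11608 genes) or 2 Dlx3 libraries (12146 genes) were fitted with limma-trend (limma 3.58.1 in R 4.3.3). The residual degrees of freedom were 6 in Fvb/N and 4 in the Dlx3 table, and the prior ones 3.17 and 4.80. Calls are at a Benjamini-Hochberg adjusted p under 0.05 over all genes tested. P-values measure only the spread between these libraries, which may be technical.

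All 10 members are named. A gene that the naming rule takes is not reported here. Genes named from a list were taken from up to 2 called genes per direction and comparison with the largest change. Their groups did not overlap and the higher one averaged 5 RPKM or more. Several genes that meet this rule are not named in the text, so the named ones are a part of its output. Depth was estimated from the smallest RPKM steps of genes with 1 transcript. In Fvb/N, same-numbered suprabasal and basal libraries deviate from their group means with correlations of 0.507, 0.567, 0.555 and 0.121, all over 0.1. Differently numbered libraries reach 0.587, so the numbers may follow the code of the labels rather than animals. The Fvb/N values given come from the fit without pairs, and a fit blocked on replicate number was an alternative. Tested on simulated data, where 200 genes were changed, the Fvb/N layer comparison found 84% of those changed 2-fold and 26% of those changed 1.5-fold, with 9 of 164 calls false. The Dlx3 WT layer comparison found 98% of those changed 1.5-fold, with 6 of 205 calls false. The simulated noise was independent between genes and libraries, and few genes were changed. These figures therefore do not cover deviations that the genes of a library share, or a general shift between layers. Figures were drawn with matplotlib 3.10.9 in Python 3.11.15, and tables handled with numpy 2.4.6 and pandas 2.3.3.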

Additional observations from a re-analysis of the deposited data

Results flagged for a closer look

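In 5 of the 24 sets of 4 Fvb/N libraries examined (10 members and 2 ratios in each layer), 1 library lay farther from the rest than Dixon's 95% limit of 0.829 allows, where chance flags about 1 set in 20. The sets share the same libraries, and the Sun1 to Sun2 ratio repeats Sun1. The flags are therefore not independent, and their number cannot be weighed against that rate. Suprabasal library 3 was the high one for Lmnb2 (7.54 RPKM), Sun1 (26.2 RPKM), Syne2 (11.8 RPKM) and the Sun1 to Sun2 ratio (0.611). Suprabasal library 4 was the high one for Emd (21.5 RPKM, with the other 3 libraries at 20.5 RPKM). Library 3 also held more basal marker RNA than the other suprabasal libraries, and the part of that RNA in these values was not tested.

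The genotype effect differed between the layers by the test of the difference itself for Sun2 (0.24 log2 units, limma adjusted p = 0.00296) and for Lmna (0.14 log2 units, limma adjusted p = 0.0150). Both effects were more positive in suprabasal cells. The call for Lmna was lost without the intensity trend and in some fits that left a library out, while that for Sun2 was kept in every alternative. Of all genes tested, 14.4% had a positive and 8.08% a negative difference (22.5% in either direction).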

How the results depend on the processing

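Over all alternatives, 600 member values kept their direction and side of the threshold, 20 lost and 8 gained a call, and 15 changed sign; the causes were not tested, beyond the fewer samples of a fit that leaves a library out. Rescaling by the median ratio turned Emd in the Fvb/N layer comparison to 0.30 (not called), Lmna, Lbr and Sun1 in the KO layer comparison to 0.10, 0.13 and 0.39 (called), Lbr and Sun1 in the WT layer comparison to 0.0378 (not called) and 0.43 (called), and, for KO over WT in basal cells, Lmna to 0.003 and Sun1 to 0.0224 (not called). Leaving out 1 library gave values of either sign for small uncalled differences. For KO over WT in basal cells Sun1 ranged from -0.0339 to 0.0331 (above 0 without KO basal 1 or WT basal 1) and Lmna from -0.0446 to 0.0036 (above 0 without WT basal 2). For KO over WT in suprabasal cells Lbr ranged from -0.1018 to 0.0264 (above 0 without KO suprabasal 1) and Emd from -0.0581 to 0.0991 (below 0 without WT suprabasal 1 or, at -0.0004, KO suprabasal 2). The difference between layers of Sun1 ranged from -0.0641 to 0.003 (above 0 without KO basal 2). Leaving out 1 library, the genes called for KO over WT in basal cells numbered 463 to 542 (876 with all libraries) with 1 to 2 members, and those called for the difference between layers 1591 to 2306 (2737) with 1 to 3 members. Without a filter, 1 member was called for KO over WT in basal cells, since Lmnb1 was not (adjusted p = 0.0561), and without the intensity trend 1 member was called for the difference between layers. The fall of Sun1 between KO layers was not called without a filter (0.0671), without the trend (0.0857), or without KO basal 2 (0.287) or KO suprabasal 1 (0.224). Syne1 in suprabasal KO over WT was called without a filter (0.0267) and without the trend (0.0103). The ratio of Lmna to Lmnb1 plus Lmnb2 taken on RPKM + 1 was 5.57 in KO suprabasal and 4.82 in WT suprabasal cells. Adding the replicate number as a block changed no member's call: Lmnb1 in Fvb/N had an adjusted p of 1.63e-05, and KO over WT in basal cells had 823 genes called. In the Dlx3 table same-numbered libraries deviate with correlations of 0.02, 0.02, 0.06 and -0.02, so the numbers there were not taken as pairs. How far depth limits each member was not computed, since the deposited values are RPKM and not counts.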
